A study of Mus musculus with 6 samples.

Results

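The mitochondrially encoded genes are those read from the circular genome of the mitochondrion itself. They were taken as every gene whose Ensembl ID maps in the mouse GENCODE annotation to a symbol beginning mt-. The annotation holds 37 such genes, and the deposited files list 15 of them among 24938 genes. The 15 are 12 of 13 protein genes, both rRNA genes and 1 of 22 tRNA genes. The tRNA is mt-Tp, which carries proline. The 12 protein genes comprise 7 subunits of complex I, mt-Cytb of complex III, 3 subunits of complex IV and mt-Atp6 of complex V. By coding strand, 13 of the 15 lie on the annotated plus strand of the mitochondrial genome, and mt-Nd6 and mt-Tp lie on the minus strand. The protein gene mt-Atp8 and the other 21 tRNA genes were not analysed here.

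RNA was sequenced from the mouse fibroblast line NIH3T3, which was derived from embryos, in 2 groups of 3 libraries. The first group overexpressed F-CircAE, a circular RNA (a transcript with joined ends) related to AML1-ETO, the fusion of RUNX1 (AML1) and RUNX1T1 (ETO) found in acute myeloid leukaemia. The second group was labelled wild type. The labels do not say whether the wild type cells received an empty vector, so effects of the overexpression procedure and of the circular RNA cannot be told apart. They name no promoter or clone, and they do not say whether libraries came from separate cultures. The p-values therefore reflect nothing beyond library-to-library spread, and that spread may be technical.

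Mitochondrial DNA is transcribed from both strands into long precursors that cover many genes. The tRNAs lie between most of the protein and rRNA genes, and cutting them out releases the neighbouring RNAs, after which each RNA has its own stability. The protein genes all encode core subunits of the respiratory chain and of ATP synthase, which work beside nuclear-encoded partners, and the 2 rRNAs belong to the mitochondrial ribosome. Stretches of mitochondrial DNA have also been copied into nuclear chromosomes during evolution, and such copies can be near-identical to the mitochondrial genes.

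The values are FPKM, that is fragments per kilobase of gene and scaled to library size. Whole reads could be recovered from the steps between low values, for all 15 mitochondrial genes and in every library. Sequencing was paired, and whether a step is a read or a read pair is not given in the sources used here. Counts of reads, here and below, are counts of that unit. The 15 genes together held 341269, 561704 and 454203 reads in overexpression replicates 1, 2 and 3, against 373063, 390030 and 451654 reads in wild type replicates 1, 2 and 3. Over all genes with whole reads the libraries held 12093661 to 15556230 reads. Wild type replicates 1 and 2 stood apart by their likeness, with a median absolute log2 difference of 0.05 over 12222 tested genes, where the other 14 pairs of libraries ran from 0.09 to 0.16. The counts of genes passed and the medians by class and complex are given below also with the pair averaged to 1 library. Of the fibroblast markers, Col1a1 lay between 444 and 607 FPKM and Vim between 560.3 and 665 FPKM. Thy1, another, was low, between 0.87 and 3.61 FPKM. Col3a1 held 48.8, 94.6 and 108 FPKM with overexpression, against 148, 146 and 85.6 FPKM in wild type, and Pdgfrb 6.91, 11.9 and 11.5 FPKM with overexpression, against 17.8, 17.1 and 7.60 FPKM in wild type. Both were thus highest in wild type replicates 1 and 2, as were Col1a1, Col1a2, Pdgfra and, narrowly, Thy1. Vim and S100a4 (2.08 to 3.58 FPKM) were not highest there. The part of these marker differences in the results below was not tested. Of the 3 leukocyte markers, Ptprc and Itgam did not exceed 0.012 and 0.035 FPKM, while Cd68 lay between 4.32 and 6.34 FPKM. The listed endothelial markers Pecam1 and Cdh5 did not exceed 0.41 and 0.93 FPKM. Of the listed epithelial markers, Krt18 and Krt8 did not exceed 0.070 and 0.99 FPKM, and Cdh1 lay between 2.19 and 2.82 FPKM.

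The sequences set the listed genes apart by how closely nuclear genes match them. Among the listed genes, a run along the mitochondrial genome from mt-Co2 through mt-Nd4l has near-identical annotated pseudogenes on chromosome 1. Parts of mt-Co1 and mt-Nd4, on either side of this run, have such copies too. The first 60 bases of mt-Co3, a complex IV subunit (chrM:8607-8666, plus strand, GENCODE M21 on mm10), and of its copy Gm28437 (chr1:24613912-24613971, minus strand) show a pair without a difference.
mt-Co3: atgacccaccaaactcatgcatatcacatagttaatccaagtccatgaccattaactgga
Gm28437: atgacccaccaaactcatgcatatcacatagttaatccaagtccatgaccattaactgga
No base differed over the 783 aligned bases of this pair. The same held for mt-Co2 and Gm28661 (681 bases), mt-Atp6 and Gm10925 (678 bases), mt-Nd4 and Gm28439 (876 bases) and mt-Nd4l and Gm10222 (294 bases). These are reference sequences of the mm10 build, and the sequence of the NIH3T3 cells was not examined.

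The other 2 pairs differ at few positions. In the first 60 bases of mt-Nd3, a complex I subunit (chrM:9459-9518, plus strand), and Gm28438 (chr1:24613060-24613119, minus strand), the capital marks the 1 difference over 345 aligned bases.
mt-Nd3: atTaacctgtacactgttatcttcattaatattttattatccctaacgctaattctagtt
Gm28438: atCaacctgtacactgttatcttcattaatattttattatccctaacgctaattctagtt
Counted from the first base of the mitochondrial gene, the difference is T3C. The copy of mt-Co1 is Gm29216, which covers the last 492 bases of the gene. Capitals mark the differing bases in the first 60 bases of that stretch (chrM:6381-6440, plus strand, and chr1:24616138-24616197, minus strand).
mt-Co1: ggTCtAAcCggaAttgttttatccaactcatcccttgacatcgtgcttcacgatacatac
Gm29216: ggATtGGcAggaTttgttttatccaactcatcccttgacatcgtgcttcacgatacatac
All 6 differences lie here, namely T1056A, C1057T, A1059G, A1060G, C1062A and A1066T, and the bases after them were identical.

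The extent of matching was measured as the share of a gene's 50-base windows that occur unchanged, on either strand, in an annotated nuclear transcript. It was 100% for mt-Co2, 99.9% for mt-Co3, 99.5% for mt-Atp6, 98.8% for mt-Nd4l and 98.0% for mt-Nd3. For mt-Nd4 it was 62.2% and for mt-Co1 51.1%. The remaining listed genes had 8.19% (mt-Nd2), 7.61% (mt-Nd5), 1.04% (mt-Rnr2) and 0% (mt-Rnr1, mt-Nd1, mt-Nd6, mt-Cytb and mt-Tp). Only annotated transcripts were searched, so copies outside them do not count in these shares.

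Levels per length ran over a range of 1.81 to 9121 FPKM within a genome whose genes share precursors. The 5 genes with over 90% of windows shared lay between 1.81 and 90.1 FPKM in all libraries. The 10 others lay between 103 and 9121 FPKM, and the 7 protein genes among them between 294 and 9121 FPKM. No gene of the first set reached the level of any gene of the second in any of the 6 libraries. The low set forms 1 contiguous stretch of the listed genes in genome order. How the authors assigned reads that match more than 1 place is not given in the sources used here, and its part in these levels was not tested.

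**Figure D1:**
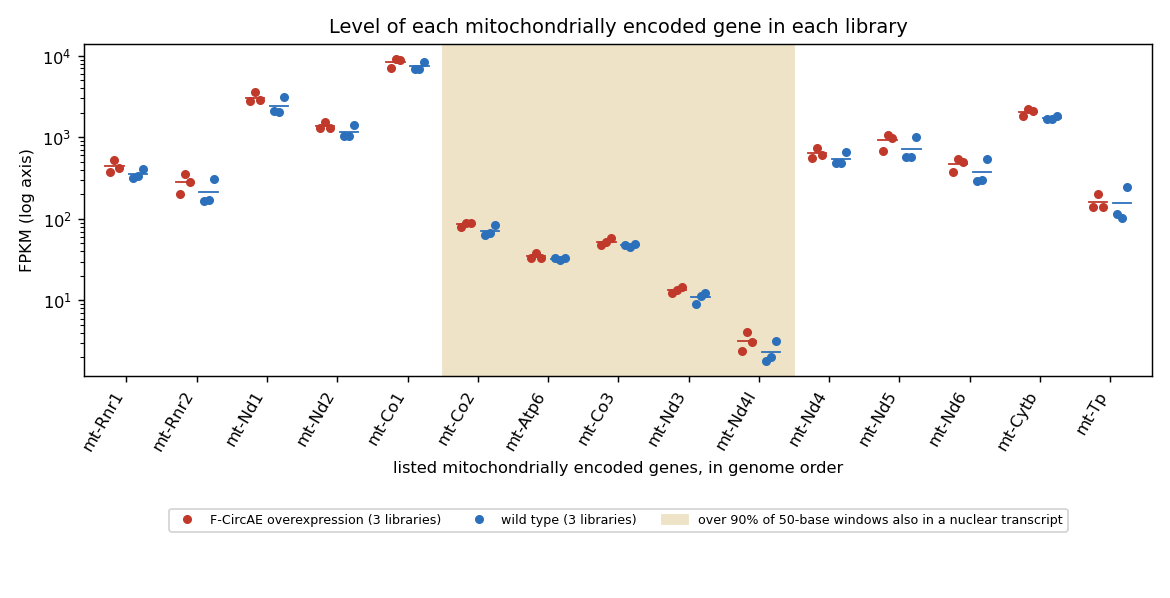
FPKM on a log axis for the 15 listed genes in genome order, with 3 points and a line at the mean for F-CircAE overexpression (left, red) and wild type (right, blue). The shaded genes, with over 90% of their 50-base windows also in a nuclear transcript, lie between 1.81 and 90.1 FPKM, below all others in both groups.

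The catalytic subunit of cytochrome c oxidase, mt-Co1, had the highest level. It held 7131, 9121 and 8996 FPKM in overexpression replicates 1, 2 and 3, against 6876, 6923 and 8427 FPKM in wild type replicates 1, 2 and 3. The groups overlapped, with wild type replicate 3 above overexpression replicate 1. As a share of the summed FPKM of the 15 genes, mt-Co1 took 45.8%, 45.4% and 48.8% with overexpression, against 49.7%, 50.01% and 46.5% in wild type. The other 2 complex IV subunits are encoded in the stretch with nuclear copies. For mt-Co2, which takes up electrons from cytochrome c, the values were 79.2, 90.1 and 90.01 FPKM with overexpression, against 63.6, 67.5 and 84.1 FPKM in wild type. For mt-Co3 they were 48.3, 52.1 and 57.8 FPKM with overexpression, against 48.1, 44.97 and 48.6 FPKM in wild type. The ratio of mt-Co1 to mt-Co2 FPKM within a library was 89.98, 101.2 and 99.9 with overexpression, against 108, 103 and 100.3 in wild type. The ratio thus lay within a narrow range over the 6 libraries.

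Complex I takes electrons from NADH, and its 7 mitochondrial subunits spanned nearly the whole range of levels. The most abundant, mt-Nd1, held 2772, 3551 and 2852 FPKM with overexpression, against 2110 (replicate 1), 2058 (replicate 2) and 3125 (replicate 3) FPKM in wild type. For mt-Nd2 the values were 1310.1, 1523 and 1303 FPKM with overexpression, against 1049.95, 1052 and 1399 FPKM in wild type. In both genes, wild type replicate 3 lay among the overexpression libraries and wild type replicates 1 and 2 lay below them. mt-Nd5 held 676, 1084 and 990.007 FPKM with overexpression, against 581, 573 and 1008 FPKM in wild type. mt-Nd4 held 566, 733 and 610.1 FPKM with overexpression, against 489, 489 and 653 FPKM in wild type. The groups overlapped again through wild type replicate 3. The lowest were mt-Nd3, with 12.4, 13.4 and 14.6 FPKM with overexpression, against 9.13, 11.3 and 12.5 FPKM in wild type, and mt-Nd4l, with 2.39, 4.07 and 3.06 FPKM with overexpression, against 1.81, 2.05 and 3.17 FPKM in wild type. The value of mt-Nd4l rested on 12, 26 and 17 reads with overexpression, against 11, 13 and 18 reads in wild type. Its neighbour mt-Nd4, which starts within its last 7 bases on the same strand, held 13205, 21726 and 15704 reads with overexpression, against 13784, 14392 and 17241 reads in wild type.

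Complex III hands electrons from ubiquinol to cytochrome c, and its mitochondrial subunit mt-Cytb carries the ubiquinol sites. Its values were 1849, 2227 and 2121 FPKM with overexpression, against 1688, 1691 and 1821 FPKM in wild type. This was the only 1 of the 15 genes whose groups did not overlap, all 3 overexpression libraries lying above all 3 wild type libraries. Among all tested genes, 6.81% had groups that separated in this direction. The gap was narrow, from 1821 FPKM in wild type replicate 3 to 1849 FPKM in overexpression replicate 1. As a share of all FPKM the groups overlapped, with mt-Cytb at 0.4915% and 0.4901% in these 2 libraries. Summed FPKM over all genes was 373695 to 380910 with overexpression, against 353510 to 370542 in wild type. The ATP synthase subunit mt-Atp6, part of the proton channel, was the least variable of the 15, with 32.9, 38.6 and 32.7 FPKM with overexpression, against 32.9, 30.9 and 33.5 FPKM in wild type. Its coefficient of variation over the 6 libraries was 7.68%, where those of the 15 genes reached 35.5% for mt-Tp.

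The minus strand carries mt-Nd6, the complex I subunit read from the other strand. Its last 14 bases overlap the last 14 bases of mt-Nd5. The last 30 bases of each gene follow, 5′ to 3′ along its own strand, with the overlap in capitals (chrM:13536-13565, plus strand, and chrM:13552-13581, minus strand).
mt-Nd5: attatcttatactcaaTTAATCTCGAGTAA
mt-Nd6: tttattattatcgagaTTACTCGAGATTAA
Without strand, reads of the overlap cannot be assigned to either gene, and whether the counting used strand is not given in the sources used here. In addition, antisense RNA at mt-Nd6 or mt-Tp could not then be told apart from RNA of the gene itself. The minus-strand shares below therefore go by the coding strand of the gene, not by the strand of the RNA.

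mt-Nd6 held 373, 543 and 505 FPKM with overexpression, against 294, 297 and 546 FPKM in wild type. The ratio of mt-Nd6 to mt-Nd5 FPKM stayed between 0.50 and 0.55, at 0.55, 0.501 and 0.51 with overexpression, against 0.51, 0.52 and 0.54 in wild type. The ratio of mt-Nd6 to mt-Cytb FPKM moved more, at 0.20, 0.24 and 0.24 with overexpression, against 0.17, 0.18 and 0.2997 in wild type. Both listed minus-strand genes together took 3.29%, 3.71% and 3.49% of the summed FPKM of the 15 genes with overexpression, against 2.95%, 2.89% and 4.38% in wild type. Wild type thus had both the lowest and the highest minus-strand shares.

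The minus-strand tRNA is short, and its whole sequence is shown because it is the 1 tRNA gene that the files list (chrM:15356-15422, minus strand).
mt-Tp: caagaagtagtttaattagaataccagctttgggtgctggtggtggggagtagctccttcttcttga
Its 67 bases are fewer than the 125 or 150 bases of a sequenced read. A read or read pair counted there thus also covers neighbouring sequence or a trimmed fragment. mt-Tp held 139, 203 and 138 FPKM with overexpression, against 115, 103 and 248 FPKM in wild type. These values rested on 158, 292 and 173 reads with overexpression, against 158, 147 and 318 reads in wild type. Wild type replicate 3 was the highest and wild type replicate 2 the lowest of the 6 libraries.

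The rRNAs build the mitochondrial ribosome, mt-Rnr1 in its small and mt-Rnr2 in its large subunit. mt-Rnr1 held 371, 534 and 423 FPKM with overexpression, against 320.05, 332 and 405 FPKM in wild type. mt-Rnr2 held 201, 354 and 287 FPKM with overexpression, against 166, 169 and 311 FPKM in wild type. Per length both rRNAs lay below mt-Nd1, the next gene downstream of mt-Rnr2 among those listed, whose FPKM exceeded that of mt-Rnr2 by 13.8, 10.03 and 9.93 times with overexpression, against 12.7, 12.2 and 10.04 times in wild type. The labels do not say whether RNA was selected by poly(A) or depleted of rRNA, and the part of either in these levels was not tested. The ratio of mt-Rnr2 to mt-Rnr1 was 0.54, 0.66 and 0.68 with overexpression, against 0.52, 0.51 and 0.77 in wild type.

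In order of mean FPKM over all 6 libraries the genes ran mt-Co1, mt-Nd1, mt-Cytb, mt-Nd2, mt-Nd5, mt-Nd4, mt-Nd6, mt-Rnr1, mt-Rnr2, mt-Tp, mt-Co2, mt-Co3, mt-Atp6, mt-Nd3 and mt-Nd4l. The ranges over libraries did not overlap between mt-Co1 and mt-Nd1, between mt-Cytb and mt-Nd2, nor between any neighbours from mt-Tp downwards. Neighbours from mt-Nd2 to mt-Tp overlapped in range, and so did mt-Nd1 and mt-Cytb.

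By class, protein genes took 95.4%, 94.6% and 95.4% of the summed FPKM of the 15 genes with overexpression, against 95.7%, 95.6% and 94.7% in wild type. The rRNA genes took 3.67%, 4.42% and 3.85% with overexpression, against 3.51%, 3.62% and 3.95% in wild type. By complex, the 7 listed complex I subunits took 36.7%, 37.1% and 34.1% with overexpression, against 32.7%, 32.4% and 37.2% in wild type. The 3 complex IV subunits took 46.6%, 46.2% and 49.6% with overexpression, against 50.5%, 50.8% and 47.2% in wild type. Nearly all of this was mt-Co1, with mt-Co2 at most 0.51% and mt-Co3 at most 0.35% in any library. In each of these splits wild type replicates 1 and 2 lay outside the overexpression range. Wild type replicate 3 lay within it, except for complex I, where its share was the highest of the 6 libraries. The shares are parts of 1 whole, so a higher share of 1 set lowers the others, and the splits are not separate observations.

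The 15 genes together made up 4.12%, 5.27% and 4.93% of all FPKM in overexpression replicates 1, 2 and 3, against 3.92%, 3.86% and 4.89% in wild type replicates 1, 2 and 3. In bulk RNA, more mitochondrial RNA per cell cannot be told apart from more of the cells that are rich in it. Across libraries, most of the genes moved together. Overexpression replicate 2 was highest in 11 of 15 genes and above the gene's own mean in all 15. Wild type replicate 1 was lowest in 10 and wild type replicate 2 in the other 5. The median deviation from a gene's own mean, in log2(FPKM + 1), was -0.04, 0.33 and 0.17 in overexpression replicates 1, 2 and 3, against -0.30, -0.25 and 0.15 in wild type replicates 1, 2 and 3. Wild type replicate 3 thus lay with overexpression replicates 2 and 3, and overexpression replicate 1 lay between these and the other wild type libraries.

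**Figure D2:**
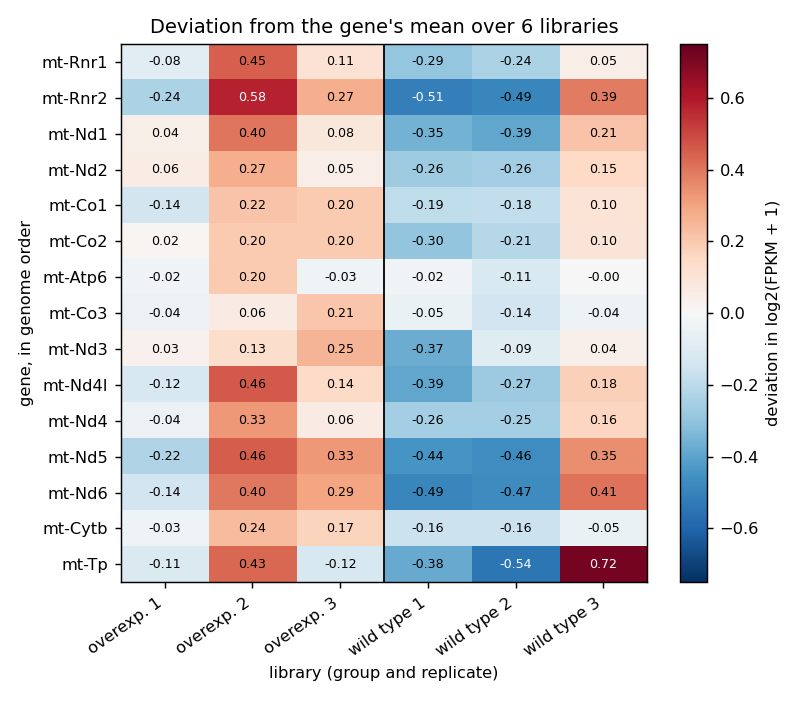
Deviation of each gene, in log2(FPKM + 1), from its own mean over 6 libraries, for the 15 listed genes in genome order (rows) and the libraries (columns, overexpression left of wild type). Red cells are above the mean, and wild type replicates 1 and 2 are at or below it in all 15 genes, whereas wild type replicate 3 is above it in 12.

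Pairs of genes differed in how closely they moved together. Over the 6 libraries, which are the only points behind each value and share depth and scaling between genes, Pearson's r of log2(FPKM + 1) ran from 0.27 to 0.997 over 105 pairs, with a median of 0.86. The highest was that of mt-Nd1 with mt-Nd2. mt-Nd5 had an r of 0.994 with mt-Rnr2 and 0.991 with mt-Nd6, which is coded on the other strand. The lowest was that of mt-Co3 with mt-Tp, followed by mt-Atp6 with mt-Nd3 at 0.32 and with mt-Co3 at 0.38.

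F-CircAE overexpression was compared with wild type in 1 fit over the 12222 genes that exceeded 1 FPKM in 3 or more libraries, a filter that all 15 mitochondrial genes passed. The test was limma on log2(FPKM + 1), with Benjamini-Hochberg adjustment over all tested genes. None of the 15 passed at an adjusted p of 0.05, and neither did any other gene (0.0% of those tested). At an unadjusted p below 0.05 in this limma fit there were 3 of the 15, namely mt-Cytb, mt-Nd3 and mt-Co2, all higher with overexpression, where 2.86% of all tested genes were higher at that level. This count was 12 without wild type replicate 3, 6 without overexpression replicate 1 and 0 without any 1 of the other 4 libraries. Over all tested genes it was 1870 without wild type replicate 3 and 594 without overexpression replicate 1, beside 632 in the main fit. Without any 1 of the other 4 libraries it was 258 to 997 over all tested genes, in either direction. For the 15 genes the count was also 0 after rescaling to genes outside the mitochondrial genome (697 over all tested genes). It was 1 after scaling to the upper quartile (601) or with no filter on low values (1160 of 24938 genes). The 15 estimates were all above 0, as were 53.2% of all estimates. Their median was 0.27 and the range 0.09 to 0.41 on the log2 scale, beside a median of 0.01 over all tested genes and a middle 50% from -0.07 to 0.08. These genes moved together from library to library, so the 15 estimates are not independent of each other.

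Among the genes with the smallest p, mt-Cytb averaged 2066 ± 195 FPKM with overexpression and 1733 ± 76.2 FPKM in wild type (SD, n = 3 each). This gave a log2 fold change of 0.25 (standard error 0.09, 95% interval 0.05 to 0.45) (limma adjusted p = 0.842). mt-Nd3 averaged 13.5 ± 1.12 FPKM with overexpression and 10.96 ± 1.69 FPKM in wild type (SD, n = 3 each), a log2 fold change of 0.28 with an interval of 0.01 to 0.55 (limma adjusted p = 0.842). mt-Co2 averaged 86.5 ± 6.24 FPKM with overexpression and 71.7 ± 10.9 FPKM in wild type (SD, n = 3 each), with a log2 fold change of 0.27 and an interval of 0.002 to 0.55 (limma adjusted p = 0.842). The 3 largest estimates had intervals that included 0. For mt-Rnr2 the estimate was 0.41 with an interval of -0.30 to 1.12, for mt-Nd5 0.37 with -0.26 to 1.01, and for mt-Nd6 0.37 with -0.26 to 0.999. The smallest estimates were those of mt-Atp6, at 0.09 with an interval of -0.10 to 0.28, and of mt-Tp, at 0.14 with -0.67 to 0.94.

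**Figure D3:**
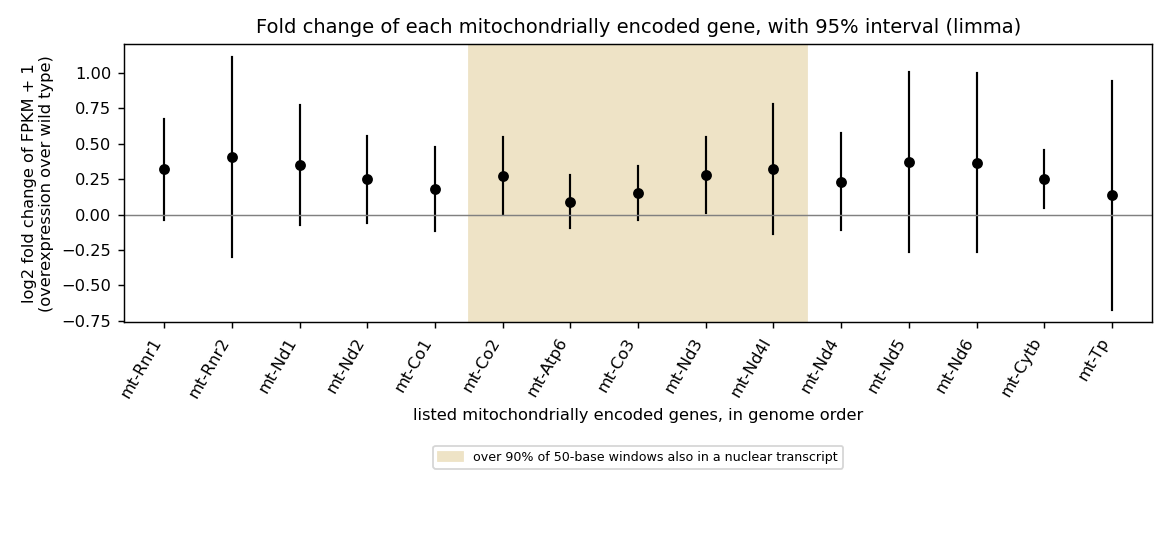
Log2 fold change of FPKM + 1 (overexpression over wild type, points) with its 95% interval from limma (lines) for the 15 listed genes in genome order. All 15 points lie above 0, from 0.09 to 0.41, and 12 of the intervals include 0, the exceptions being mt-Co2, mt-Nd3 and mt-Cytb.

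By complex, the median estimate was 0.32 over the 7 complex I subunits (range 0.23 to 0.37) and 0.18 over the 3 complex IV subunits (range 0.15 to 0.27), with single values of 0.25 for mt-Cytb and 0.09 for mt-Atp6. The 2 rRNA genes had a median of 0.36. The 5 genes with over 90% of windows shared had a median of 0.27, and the 10 others 0.28. Leaving out 1 library moved these medians. For complex I the median was 0.49 without wild type replicate 3 and 0.21 without wild type replicate 1. For complex IV it was 0.30 without overexpression replicate 1, 0.28 without wild type replicate 3 and 0.13 without overexpression replicate 3. For the rRNA genes it was 0.56 without wild type replicate 3 and 0.20 without overexpression replicate 2. With wild type replicates 1 and 2 averaged, the median was 0.23 for complex I, 0.14 for complex IV, 0.26 for the rRNA genes and 0.22 for all 12 protein genes. Differences between complexes were not tested, since their genes share a genome and its precursors.

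The count of mitochondrial genes past the threshold depended on how libraries were weighted. With weights estimated per library (limma array weights), all 15 passed, as did 11.1% of all tested genes in the direction of higher with overexpression. The largest limma adjusted p among the 15 was then 0.049. The weights were 0.28, 4.64 and 0.59 for overexpression replicates 1, 2 and 3, against 2.16, 2.57 and 0.24 for wild type replicates 1, 2 and 3, so the fit rested mainly on overexpression replicate 2 and on the near-identical wild type pair. With that pair averaged to 1 library, array weights gave 0 mitochondrial genes and 0 genes in all (limma), with 4 of the 15 and 484 of all tested genes at an unadjusted p below 0.05. Averaging the pair without weights also gave 0 and 0, with 0 and 241 at that unadjusted level. Without wild type replicate 3 the median of the 12 protein genes was 0.38, and without overexpression replicate 2 it was 0.18, beside 0.26 with all libraries.

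How the reads divided between a gene and its nuclear copy differed from pair to pair. At Gm28437 there were 659, 819 and 818 reads with overexpression, against 730, 858 and 707 in wild type, while mt-Co3 held 641, 879 and 846 with overexpression, against 772, 753 and 729 in wild type. The copy's share of the reads of this pair was 50.7%, 48.2% and 49.2% with overexpression, against 48.6%, 53.3% and 49.2% in wild type. For mt-Co2 and Gm28661 the copy's share was 46.1%, 46.1% and 48.5% with overexpression, against 47.3%, 47.1% and 47.2% in wild type. For mt-Atp6 and Gm10925 it was 59.7%, 59.4% and 62.04% with overexpression, against 59.8%, 62.1% and 59.9% in wild type. These 3 identical pairs thus divided their reads in nearly constant proportions across the 6 libraries.

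The pair with 1 base of difference was less even. Gm28438 held 348, 603 and 471 reads with overexpression, against 336, 386 and 525 in wild type, where mt-Nd3 held 73, 100 and 95 reads with overexpression, against 65, 84 and 83 in wild type. The copy's share was 82.7% to 85.8% with overexpression, against 82.1% to 86.3% in wild type. In the pair of mt-Nd4l and Gm10222, counts were too low for more than a rough share, at 16, 21 and 18 reads at the copy with overexpression, against 4, 24 and 17 in wild type. At the copies of the partly matched genes the reads were few beside those of the gene. Gm29216 held 603, 913 and 811 reads with overexpression, against 639, 735 and 772 in wild type, which was at most 0.32% of the pair's reads with mt-Co1. Gm28439 held 72, 117 and 103 reads with overexpression, against 66, 76 and 91 in wild type, at most 0.65% of the reads shared with mt-Nd4.

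**Figure D4:**
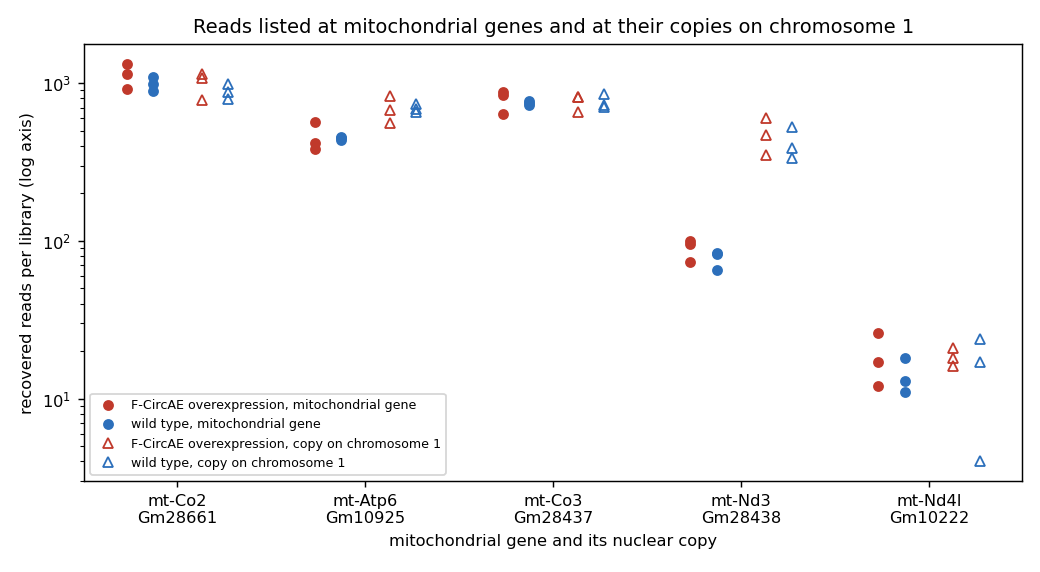
Recovered reads per library on a log axis, for the 5 genes with over 90% of windows shared (filled circles, left) and their copies on chromosome 1 (open triangles, right), with F-CircAE overexpression in red left of wild type in blue. Gene and copy lie close together for mt-Co2, mt-Atp6 and mt-Co3, whereas Gm28438 lies above mt-Nd3 in all 6 libraries.

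With the FPKM of each gene added to that of its copy on chromosome 1, all 15 estimates were above 0. Of these, 1 had an unadjusted p below 0.05 in limma, where 3 had without summing. Over all tested genes the counts at that level were 629 of 12215 with summing and 632 of 12222 without. Genes without such a copy kept their estimates by construction. The copies of mt-Co1 and mt-Nd4 are shorter than the genes, so FPKM over unlike lengths were added there. The summed estimate for mt-Co2 was 0.27, for mt-Co3 0.12, for mt-Atp6 0.08, for mt-Nd3 0.28 and for mt-Nd4l 0.41. For mt-Nd3 the sum was mostly the copy, at 47.6 to 81.2 FPKM, beside 9.13 to 14.6 FPKM at the gene. The standard error of mt-Nd3 was 0.19 when summed, against 0.11 alone, and none of the 15 passed (smallest limma adjusted p = 0.843). In reads, mt-Co2 and its copy together held 1702, 2462 and 2233 with overexpression, against 1688, 1865 and 2087 in wild type. The reads at mt-Co1 were 186571, 303209 and 259587 with overexpression, against 217373, 228433 and 249314 in wild type. These reads are not scaled to length, which is 684 bases for mt-Co2 and 1545 for mt-Co1. How reads matching more than 1 place were assigned is not given, so the sum may leave some out, and their part was not tested. Of the copies outside chromosome 1, Gm13340 on chromosome 2, a copy of mt-Co1 with 97.6% identity, held 3.02, 4.30 and 8.56 FPKM with overexpression, against 2.47, 2.06 and 6.12 FPKM in wild type. Gm13341, its neighbour there, matches mt-Co2 at 95.9% identity and held 1.32, 1.73 and 3.59 FPKM with overexpression, against 1.67, 0.91 and 2.72 FPKM in wild type. Cep295, whose transcript matches the tRNA gene mt-Tn over its whole length and mt-Tl1 in part, held 4.58, 4.66 and 4.68 FPKM with overexpression, against 4.19, 4.25 and 4.92 FPKM in wild type.

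The nuclear genes that transcribe, process, stabilise and modify mitochondrial RNA, or replicate mitochondrial DNA, were described as a list of 44, all of which were tested. None rose or fell at an adjusted p of 0.05 (smallest limma adjusted p = 0.842), and 2 had an unadjusted p below 0.05, namely Mrm3 and Tfb1m, beside 5.17% of all tested genes at that level. Of the 44 estimates 35 were above 0 (79.5%, beside 53.2% of all tested genes), with a median of 0.06 and a range of -0.11 to 0.25. In 5 of the 44 (Tfb1m, Pnpt1, Ptcd2, Mrm2 and Mrm3) all overexpression libraries lay above all wild type libraries, beside 6.81% of all tested genes. In 1 of the 44, Gtpbp3, they lay below, beside 4.69% of all tested genes.

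Of the genes of the list that act in transcription, only the 4 set by role are described here, and these differed little between groups. Polrmt, the mitochondrial RNA polymerase, held 10.2, 10.2 and 9.71 FPKM with overexpression, against 9.90, 9.85 and 9.89 FPKM in wild type. Tfam, which binds and bends the promoters and packages the DNA, held 12.1, 11.3 and 10.1 FPKM with overexpression, against 10.5, 10.7 and 11.4 FPKM in wild type. Tfb2m, which opens the promoter with the polymerase, averaged 4.67 ± 0.25 FPKM with overexpression and 4.53 ± 0.32 FPKM in wild type (SD, n = 3 each). Tefm, the elongation factor, averaged 8.64 ± 0.17 FPKM with overexpression and 8.10 ± 1.08 FPKM in wild type (SD, n = 3 each). In these 4 genes the groups overlapped, and the log2 fold changes were 0.02, 0.03, 0.04 and 0.09 in the order given.

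Among factors of RNA stability and decay, Lrpprc, which keeps mitochondrial mRNAs stable together with Slirp, held 18.8, 16.4 and 16.4 FPKM with overexpression, against 15.3, 14.7 and 17.2 FPKM in wild type. Slirp held 4.83, 4.12 and 4.66 FPKM with overexpression, against 3.23, 3.32 and 4.54 FPKM in wild type. In both, wild type replicate 3 lay within the overexpression range. Pnpt1, the exonuclease of the mitochondrial degradosome, held 25.3, 24.3 and 22.8 FPKM with overexpression, against 21.9, 22.2 and 21.6 FPKM in wild type, without overlap (log2 fold change 0.13, limma adjusted p = 0.842). Its helicase partner Supv3l1 averaged 9.19 ± 0.39 FPKM with overexpression and 8.77 ± 0.25 FPKM in wild type (SD, n = 3 each).

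Of the processing genes, Elac2, which cuts tRNAs at their 3′ ends, averaged 17.8 ± 1.74 FPKM with overexpression and 16.5 ± 2.14 FPKM in wild type, and Trmt10c, a part of the mitochondrial RNase P that cuts the 5′ ends, 8.71 ± 1.41 FPKM with overexpression and 7.97 ± 0.74 FPKM in wild type (SD, n = 3 each). Mtpap, the mitochondrial poly(A) polymerase, averaged 6.40 ± 0.39 FPKM with overexpression and 6.72 ± 0.21 FPKM in wild type (SD, n = 3 each), with a log2 fold change of -0.06. The highest estimates of the list were those of Rexo2, an oligoribonuclease, at 0.25, and of Slirp, also at 0.25. Rexo2 held 138, 121 and 102 FPKM with overexpression, against 87.1, 94.7 and 120.4 FPKM in wild type, so the groups overlapped. The lowest were Mrm1, a methyltransferase of the large mitochondrial rRNA, at -0.11, and Polg2, a subunit of the mitochondrial DNA polymerase, at -0.11.

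**Figure D5:**
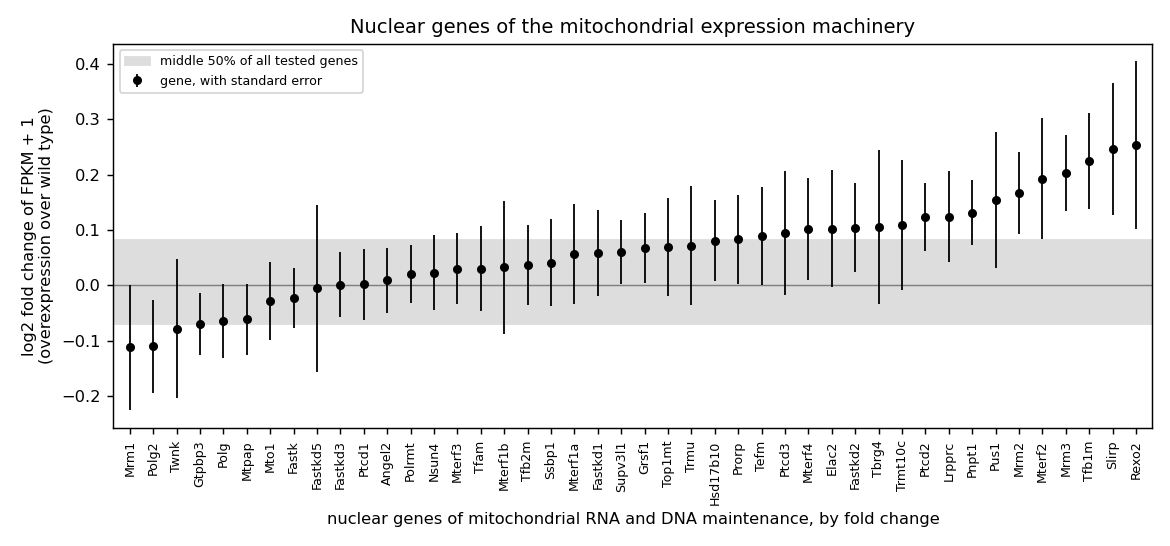
Log2 fold change of FPKM + 1 (overexpression over wild type) with its standard error for the 44 nuclear genes of mitochondrial RNA and DNA maintenance, ordered by fold change, with the middle 50% of all tested genes as a grey band. The points run from -0.11 to 0.25, and 35 of 44 are above 0.

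The nuclear genes most like the mitochondrial protein genes in their pattern were sought among the 5427 that exceeded 10 FPKM in 3 or more libraries, by Pearson's r over the 6 libraries with the mean log2(FPKM + 1) of the 12 protein genes. The 5 highest were 1700037H04Rik (r = 0.992), Bmi1 (0.990), H2afy2 (0.987), Elp3 (0.986) and Stk10 (0.985). Bmi1, a Polycomb protein, held 22.9, 25.4 and 24.05 FPKM with overexpression, against 21.4, 21.95 and 24.2 FPKM in wild type, so that wild type replicate 3 again lay within the overexpression range. With 6 libraries and this many genes compared, such values describe these libraries.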

How the data were processed

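RNA was DNase-treated, made into libraries with the NEBNext Ultra RNA kit and sequenced as paired reads of 125 or 150 bases, per the labels' protocols. The deposited values are FPKM per Ensembl gene, per the file headers, scaled by the authors to gene length and library size. The build was mm10, per the submitters' processing notes; the aligner, counting program, strand use and treatment of multiply matching reads are not stated there or in the labels. Groups came from the labelled genotype and replicate numbers from the titles.

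Symbols, coordinates and exon lengths came from GENCODE M21 (24816 of 24938 IDs matched). FPKM times length gave whole reads, within 0.01 plus a relative 1e-06, in all 6 libraries for 19832 genes (79.5%). These reads served for depth, for the division of reads between genes and their nuclear copies, and for 1 alternative. A read count taken by itself covers counting error only, not the spread between libraries.

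The planned test for FPKM was used: limma 3.58.1 (R 4.3.3, trend and robust) on log2(FPKM + 1), group only, for the 12222 genes above 1 FPKM in 3 or more libraries. Fold changes on this scale understate those of low genes. The fit was checked on simulated data, where genes varied independently and the planted changes were larger than the estimates of the 15 genes. It was thus not checked at effects of their size or for genes that move together. Nuclear copies were found with BLAST 2.17.0 (at least 50 bases at 90% identity) in GENCODE transcripts, whose sequences are those printed. The genes named were all 15 mitochondrial genes, 11 machinery genes set by role with the 2 highest and 2 lowest estimates of that list, the copies above 1 FPKM and the 5 most alike nuclear genes; Tfb1m, Ptcd2, Mrm2, Mrm3 and Gtpbp3 were chosen after their values were seen. The members and lists were chosen with earlier results of these data known. Alternatives were other pseudocounts, filters and scalings, a replicate block, leaving out each library, array weights, averaging wild type replicates 1 and 2, and limma-voom on reads; 2 were added after seeing the data.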

Additional observations from a re-analysis of the deposited data

How the results depend on the processing

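Over 18 alternatives, 265 of 269 fold-change estimates of the mitochondrial genes were above 0. The other 4 were all of mt-Tp, at -0.063 with wild type replicates 1 and 2 averaged, -0.046 without overexpression replicate 2, -0.020 without wild type replicate 1 and -0.10 without wild type replicate 2. The 269 values are not independent, since they re-fit the same 6 libraries for genes that moved together. Other filters and the replicate block could not change an estimate and repeated that of the main fit. Over all 6 libraries left out in turn, mt-Tp ran from -0.10 to 0.53. The count of 0 mitochondrial genes became 15 with array weights, and that of 0 genes in all became 2241. Leaving out single libraries gave 0 to 2 genes in all (limma), with 2 without wild type replicate 3 and 1 without overexpression replicate 1, none of them mitochondrial. Array weights also moved the medians of complex I to 0.69, of complex IV to 0.37 and of the rRNA genes to 0.79. The weights were largest for overexpression replicate 2 and wild type replicates 1 and 2, and why these libraries differed from the others was not tested.

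With the replicate block 0 mitochondrial genes and 0 genes passed (444 at an unadjusted p below 0.05 in limma, against 632 without it). Deviations of same-numbered libraries correlated at -0.10, 0.08 and 0.003, and the libraries did not all correlate best with their own number, so numbers were not taken as pairs. Rescaling to genes outside the mitochondrial genome lowered the protein-gene median to 0.21, with the median of all genes at -0.04. No gene passed in limma-voom on recovered reads, where 465 had an unadjusted p below 0.05. Depth limits mt-Nd4l most, at 11 to 26 reads.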
